A study of Mus musculus with 3 samples.

Results

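Dentin and bone share a matrix of type I collagen that mineralizes with the help of a small set of secreted proteins and 1 cell-surface enzyme. The 10 genes described here encode the 2 chains of type I collagen (Col1a1, Col1a2), the 5 acidic phosphoproteins of the SIBLING family (Dspp, Dmp1, Ibsp, Mepe, Spp1), osteocalcin (Bglap), osteonectin (Sparc) and tissue-nonspecific alkaline phosphatase (Alpl). They were set against a deposited list of open chromatin windows from the mouse molar root. A gene was given every window whose midpoint lay inside it or within 10 kb of it, which reached 5 of the 10 genes and assigned them 7 of the 13500 windows, with 6 of the 5753 deposited Plagl1 motif sites.

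The windows came from ATAC-seq, in which Tn5 transposase cuts accessible DNA, on the apical part of first molars of C57BL/6 mice. There was 1 library from Gli1-CreER;Arid1a fl/fl mutant mice and there were 2 from Arid1a fl/fl controls, so that all libraries carry the floxed allele of Arid1a, a SWI/SNF chromatin remodelling subunit. Per the labels, tamoxifen (1.5 mg per 10 g body weight) was given at postnatal day 3.5, the age label is day 7.5, and each library took 5000 collagenase-released cells, which were not sorted by any label. Gli1-CreER recombines in cells that express the hedgehog target Gli1, so cells outside that lineage keep the floxed gene. The deposited list is a union without values per library. Mutant and controls are therefore not set against each other here. Depth per window is unknown, and the values have no replicate error.

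In the tooth, odontoblasts secrete a collagen-rich predentin that mineralizes into dentin, and in bone osteoblasts do the same with osteoid. Collagen chains form the fibrils, the SIBLING proteins bind calcium and collagen and regulate crystal growth, and alkaline phosphatase removes pyrophosphate, an inhibitor of mineral. Plagl1, also called Zac1, is a zinc finger transcription factor. A Plagl1 site here is a sequence match of 10 bases to the HOMER motif, not a measurement of binding.

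The 6 sites in windows of these genes are shown first because they are the sequence data that the motif results rest on. Each is written 5′ to 3′ on the strand of the match, with positions 4 to 7, where the whole list has G or A at position 5 and almost always G at the others, in capitals.
Col1a1, 7.2 kb below the gene: ctgGAGGccc
Col1a1, first site at the gene end: aaaGGGGccc
Col1a1, second site at the gene end: cagGAGGcac
Col1a1, last site at the gene end: agtGAGGcca
Col1a2, at the gene start: ctaGGGGccc
Sparc, inside the gene: caaGAGGctt
Of these sites 4 have GAGG and 2 have GGGG in the capital positions, where the whole list has 44.3% GAGG and 54.7% GGGG. A CpG was present in 0 of the 6, beside 39.4% of all sites.

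Both collagen genes, Sparc and Alpl had a window within 1 kb of a gene end, Bglap had a window 7.0 kb away, and none of the 5 SIBLING genes, which lie side by side at 1 locus, had any. That is 5 of 10 genes (50%) with a window inside or within 10 kb, beside a background of 59.5% of 21887 protein-coding genes. A motif site lay in a window of 3 of the 10 genes, beside 25.1% of all protein-coding genes. Among the genes with a window that is 3 of 5, beside 42.1%. Both counts are descriptions of 10 chosen genes and were not tested, and the share with a window lies near that of all genes.

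**Figure D1:**
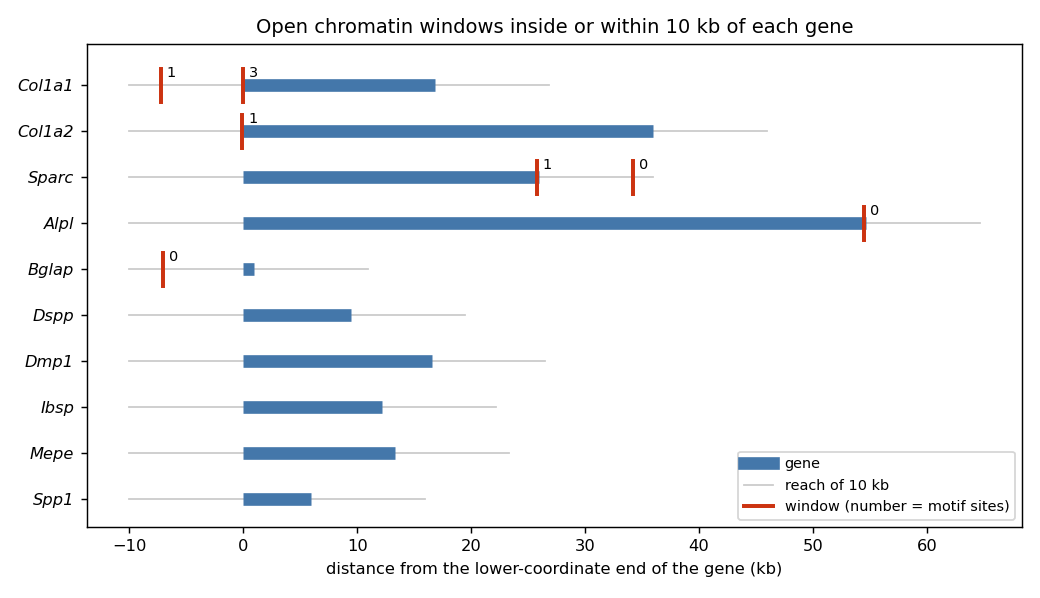
Map of the 10 genes, each drawn from its lower-coordinate end (x axis, kb), with open chromatin windows as red bars and the number of Plagl1 motif sites beside each. Windows sit at a gene end of Col1a1, Col1a2, Sparc and Alpl, while the bottom 5 rows, the SIBLING genes, have none.

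Col1a1, which encodes the more abundant chain of type I collagen, held the most sites of the 10 genes. It spans chr11:94936224-94953042 of mm10 and had 2 windows, a number reached by 21.2% of protein-coding genes. The window at chr11:94936119-94936319 had its midpoint 5 bases below the lower end of the gene and 16823 bases below the higher end, so it straddles that end. It held 3 motif sites, and 1.50% of the 13500 windows held as many.

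The first site at that end lay at chr11:94936228-94936237 on the plus strand and scored 7.34. This deposited score is HOMER's log-odds score, whose log base the file does not state. It ranked 59 of 5753 sites, where the median was 5.94 and the range 5.51 to 7.74, and its 10 bases occur at 4 sites of the list. The second began 54 bases further on with a score of 6.20, and the last another 14 bases on with a score of 6.52. All 3 lay on the plus strand and above the median score of the list.

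The other Col1a1 window lay outside the gene, at chr11:94928908-94929108, 7216 bases below its lower end. No other protein-coding gene lay within 10 kb of it, and the next, Sgca, was 33769 bases away. It held the 1 site of score 5.79, below the list median. Its base composition was unusual in the list. It combined 68.7% GC with 3 CpG per 100 steps between neighbouring bases, where the 2394 windows within 2 percentage points of its GC content had a median of 10 CpG per 100 steps. Its CpG value stood at percentile 0.376 of those windows.

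Col1a2 encodes the other chain of type I collagen, on another chromosome (chr6:4505618-4541543, plus strand). Its single window, chr6:4505441-4505641, had its midpoint 77 bases upstream of the gene start and 36002 bases from the far end. It held 1 site on the minus strand at chr6:4505595-4505604, 23 bases upstream of the start, with a score of 6.15 (percentile 69.3 of all sites). The whole window lies in the RefSeq promoter of this gene, as its bases 74 to 274, so its letters can be read. The promoter is shown because an open window, a Plagl1 site and a gene start coincide in it. The window at the end of Col1a1 also held sites, but no RefSeq promoter was available for that gene. Capitals mark the Plagl1 site, the GC boxes GGGCGG and the CCAAT boxes, on either strand, in GRCm38.p6 (chr6:4505368-4505667, plus strand).
Col1a2: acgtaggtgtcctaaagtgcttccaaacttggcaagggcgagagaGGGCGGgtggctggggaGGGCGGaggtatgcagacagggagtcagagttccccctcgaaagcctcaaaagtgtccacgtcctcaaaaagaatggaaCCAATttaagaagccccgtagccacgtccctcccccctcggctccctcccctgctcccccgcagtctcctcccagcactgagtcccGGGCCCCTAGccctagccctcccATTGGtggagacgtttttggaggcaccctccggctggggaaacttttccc
The site reads GGGCCCCTAG here because the match is on the opposite strand. A CCAAT box on the opposite strand began at the first base of the gene as annotated in RefSeq. Another, on the gene's strand, began 109 bases upstream. All these positions are counted from the farthest upstream RefSeq start, and where transcription starts in these cells was not measured.

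The closest deposited window on the far side of Col1a2 was 59609 bases beyond the gene, inside Casd1. Within 500 kb of Col1a2 there were 6 windows, and within the same distance of Col1a1 there were 22. The pair of collagen genes thus differed in how many windows surrounded them, and both had 1 window at a gene end. No background over all genes was taken for the 500 kb distance, and the density of genes around the pair was not compared. The numbers of motif sites in those end windows were 3 for Col1a1 and 1 for Col1a2.

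Sparc encodes osteonectin, a collagen-binding and calcium-binding glycoprotein, and had 2 windows. The gene lies on the minus strand at chr11:55394159-55420080. The window at chr11:55419843-55420043 lay inside the gene with its midpoint 137 bases downstream of the start, and it was the lowest in CpG of the 7 windows, with 1.5 CpG per 100 steps at 60.7% GC. It held 1 site on the minus strand, which is the strand of the gene, 177 bases downstream of the start, with a score of 5.79 (percentile 35.4). The other window, chr11:55428306-55428506, lay 8326 bases upstream of the start and held no site. That window had Sparc as its nearest protein-coding gene, followed by Atox1 at 18231 bases.

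Alpl encodes the phosphatase that degrades pyrophosphate at the mineralizing front. It lies on the minus strand at chr4:137741731-137796384, and its single window, chr4:137796137-137796337, lay inside the gene with its midpoint 147 bases downstream of the start. This was the richest in GC and CpG of the 7 windows, with 71.1% GC and 11.5 CpG per 100 steps, and it was the only one above the list median of 9 CpG per 100 steps. It held no deposited motif site. The next windows lay 39731 bases above the gene and 147553 bases below it.

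The Alpl promoter directly upstream of that window is shown as the CpG-rich case. Capitals mark GC boxes and matches to deposited Plagl1 site sequences (chr4:137796335-137796634, minus strand, GRCm38.p6).
Alpl: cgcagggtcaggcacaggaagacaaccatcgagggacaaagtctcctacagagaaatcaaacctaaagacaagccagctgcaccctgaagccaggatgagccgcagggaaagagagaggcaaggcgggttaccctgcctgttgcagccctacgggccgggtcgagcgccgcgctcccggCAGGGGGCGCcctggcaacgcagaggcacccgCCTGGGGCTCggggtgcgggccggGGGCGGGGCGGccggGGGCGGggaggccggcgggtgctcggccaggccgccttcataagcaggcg
It held 3 GC boxes, of which the first pair share 1 base, and 2 Plagl1 matches with scores of 5.52 and 5.63. Only 3 of its 300 bases lay in the window, so these matches lie outside the region that the deposited search covered.

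Bglap encodes osteocalcin, a bone protein whose glutamate residues are carboxylated with vitamin K, and its assignment is the weakest of the 5. The gene is 972 bases long (chr3:88383495-88384466, minus strand) and lies in a row with its close copies Bglap2 and Bglap3. The window within reach, chr3:88376361-88376561, lay between those copies. Its midpoint was 1275 bases from Bglap2, 3720 bases from Bglap3, 7034 bases from Bglap and 7920 bases from Paqr6. It had 61.7% GC, 4.5 CpG per 100 steps and no motif site. When a window counted only for its nearest protein-coding gene, Bglap had 0 windows.

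The Bglap promoter is shown because it held short motifs in a gene that had no window at its start; the closest window midpoint was 8005 bases from the start. Capitals mark, in order, a Plagl1 match on the opposite strand, a Runx core, a CCAAT box and a TATA element (chr3:88384417-88384716, minus strand, GRCm38.p6).
Bglap: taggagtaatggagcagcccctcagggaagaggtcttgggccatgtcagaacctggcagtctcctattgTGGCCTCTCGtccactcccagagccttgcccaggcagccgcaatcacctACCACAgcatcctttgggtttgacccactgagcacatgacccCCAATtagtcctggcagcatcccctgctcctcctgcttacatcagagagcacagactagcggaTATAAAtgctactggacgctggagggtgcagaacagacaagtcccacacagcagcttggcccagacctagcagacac
The Plagl1 match cgaGAGGcca scored 6.28 and began 181 bases upstream of the start. The Runx core, the recognition sequence of the osteoblast factor Runx2 and its relatives, began 132 bases upstream, and TATAAA 27 bases upstream.

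The SIBLING genes form a cluster on chromosome 5, and the whole cluster was without a window. Dspp encodes the precursor of dentin sialoprotein and dentin phosphoprotein, Dmp1 a matrix protein of odontoblasts and osteocytes, Ibsp bone sialoprotein, Mepe a regulator of phosphate and mineral, and Spp1 osteopontin. From the lower end of Dspp to the higher end of Spp1 the cluster covers 270 kb (chr5:104170703-104441053). The window below it lay inside Nudt9, 123841 bases from Dspp, and the window above it lay inside Pkd2, 18765 bases from Spp1. The midpoints of these windows were 413 kb apart.

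The length of this stretch was set against the rest of the list. Of 13479 gaps between neighbouring windows 1338 (9.93%) were as long or longer, and the median gap was 55.6 kb. This gap held 7 protein-coding genes: Gm17660, the Sparc relative Sparcl1 and the 5 SIBLING genes. As many or more lay in 184 of the 1338 gaps, whose median was 2 genes. The libraries came from mixed cells, and the filters behind the list are not given. Few cells with open chromatin at these genes, little of it in each cell, and loss of windows at filtering cannot be told apart.

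**Figure D2:**
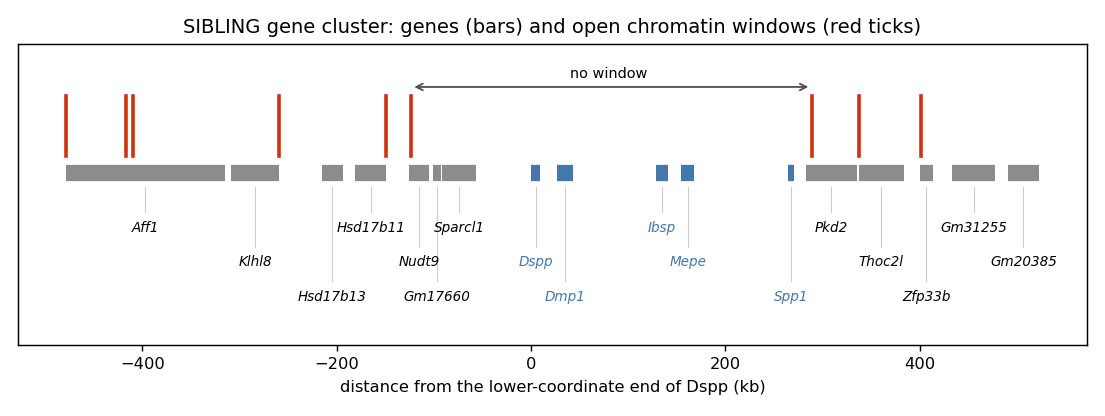
Genes (bars, SIBLING genes in blue) and windows (red ticks) along chromosome 5, with distance from the lower end of Dspp in kb on the x axis. The 413 kb between the windows in Nudt9 and Pkd2 contain all 5 SIBLING genes and no window.

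The distance to the nearest window ordered the SIBLING genes as Spp1 (18765 bases), Mepe (121207 bases), Dspp (123841 bases), Ibsp (148346 bases) and Dmp1 (150713 bases). The same windows in Nudt9 and Pkd2 set all 5 distances, so they are not independent. Spp1 was the first gene outside the 10 kb limit, and the Sparc window at 8326 bases was the last inside it. Over the 10 genes the median distance to a window was 12899.5 bases, against 162 bases over all protein-coding genes. Within 500 kb on both sides of the cluster there were 9 windows, 6 below and 3 above, of which 1 held a motif site, that of the window in Thoc2l.

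All but the Alpl window were lower in CpG than the list median. The GC content of all 7 windows ran from 60.2% to 71.1% with a median of 61.7%. The list as a whole had a median of 66.7% with quartiles of 59.2% and 72.6%. CpG values of the 7 windows ran from 1.5 to 11.5 per 100 steps with a median of 4. The list median was 9, with quartiles of 5.5 and 12. Of the 7 windows 6 lay below the list median of CpG, and 6 lay below the median of windows within 2 percentage points of their own GC content. A motif site was present in 4 of the 7, beside 32.9% of all 13500 windows.

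**Figure D3:**
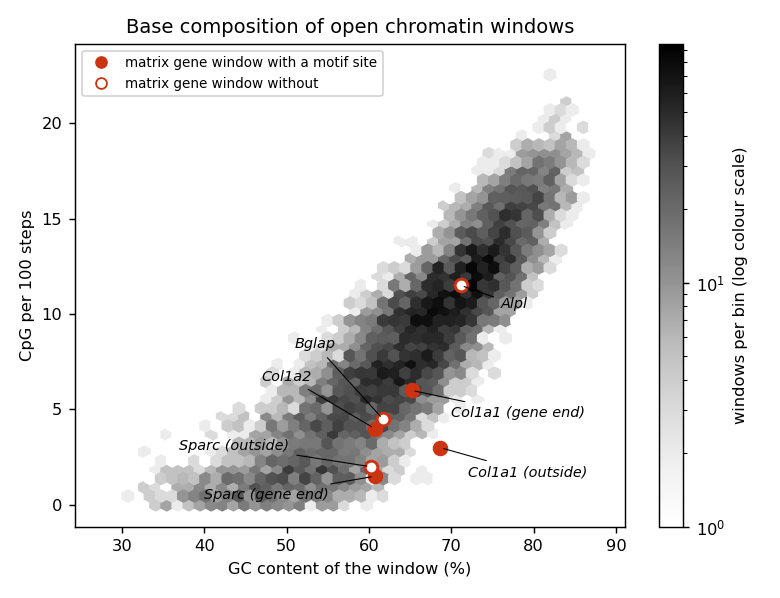
GC content (x axis, %) against CpG per 100 steps (y axis) for all 13500 windows (grey, darker where more windows lie) and the 7 windows of matrix genes (red circles, filled where a motif site was present). The Alpl window sits at 11.5 CpG per 100 steps and the other 6 at 1.5 to 6; "outside" marks the windows 7216 bases from Col1a1 and 8326 bases from Sparc.

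The base composition of the promoters was compared next. RefSeq promoters of 300 bases, 250 before and 50 after the start, matched 8 of the 10 genes and 17492 protein-coding genes in all. The farthest upstream entry was used for each gene. In 7 of the 8 the observed number of CpG over the number expected from the C and G content was below 0.6, from 0.169 in Bglap through 0.174 in Sparc, 0.195 in Spp1, 0.274 in Mepe, 0.311 in Ibsp and 0.417 in Dmp1 to 0.470 in Col1a2. Alpl had 0.720. Over all promoters the median was 0.577 and 51.6% lay below 0.6.

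Across all genes this ratio went with the presence of a window. A window lay inside or within 10 kb of 32.9% of the 9026 genes below 0.6 and of 89.2% of the 8466 genes at or above it. Of the 7 matrix genes below 0.6, 3 had a window (Col1a2, Bglap and Sparc), and the 1 above it, Alpl, had a window too. The 3 of 7 stands beside the 32.9% of genes of low promoter CpG and was not tested. Those without a window, Dmp1, Ibsp, Mepe and Spp1, are neighbours in the same gap between windows. The 7 genes are therefore not independent. Windows with midpoints within 1 kb of the start of a low-CpG gene had a median of 6.5 CpG per 100 steps, with quartiles of 4.5 and 9.5. The Col1a2 window (4 per 100 steps) and the start window of Sparc (1.5 per 100 steps) lay below the lower of these.

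**Figure D4:**
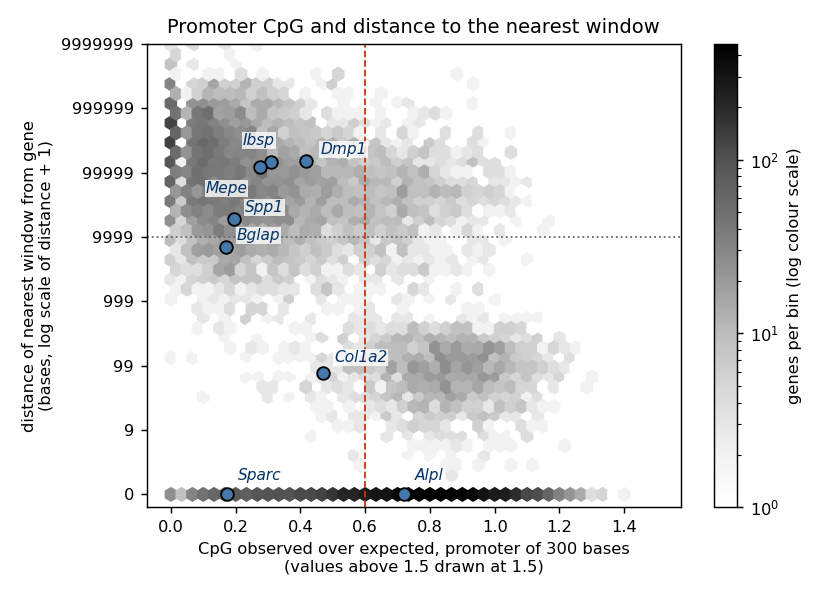
Promoter CpG observed over expected (x axis) against the distance from the gene to the nearest window (y axis, bases, log scale of distance plus 1) for all protein-coding genes with a promoter entry (grey, darker where more genes lie) and 8 matrix genes (blue). The dashed line is at 0.6 and the dotted line at 10 kb; Dmp1, Ibsp, Mepe and Spp1 lie above the dotted line and left of the dashed one.

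Short promoter motifs were searched on both strands of the 8 promoters. TATAAA was found in 4 (Ibsp, Spp1, Bglap and Mepe), beside 13.3% of all promoters and 20.4% of those below 0.6. ACCACA was found in 4 (Spp1, Bglap, Sparc and Mepe), beside 15.1% and 20.3%. CCAAT was found in 6, all but Sparc and Alpl, beside 39.2% and 40.4%. GGGCGG was found in 2, Col1a2 and Alpl, beside 46.3% and 20.2%. A match describes letters only, and the placing differed: on the gene's strand TATAAA began 27 bases upstream of the start in Bglap and 211 in Spp1, and on the opposite strand the match began 28 bases upstream in Ibsp and 173 in Mepe.

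Any of the 642 distinct deposited Plagl1 site sequences was present in 5 of the 8 promoters (Col1a2, Ibsp, Bglap, Sparc and Alpl), beside 39.4% of all promoters. In Dmp1, Mepe and Spp1 none of these letters were in the 300 bases. The best score was 6.28 in Bglap, followed by 6.15 in Col1a2, 5.86 in Sparc, 5.79 in Ibsp and 5.63 in Alpl. The Col1a2 match was the only one of these that lay in a deposited window. The Ibsp match, 179 bases upstream of the start, was the same sequence as the site in the Sparc window, caaGAGGctt, which 21 of the 17492 promoters held.

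The Ibsp and Spp1 promoters are shown as SIBLING promoters without a window, for comparison with Col1a2 and Alpl. Capitals mark the Plagl1 match, the Runx core, the CCAAT boxes and TATAAA, on either strand (Ibsp at chr5:104299037-104299336 and Spp1 at chr5:104434861-104435160, both plus strand, GRCm38.p6).
Ibsp: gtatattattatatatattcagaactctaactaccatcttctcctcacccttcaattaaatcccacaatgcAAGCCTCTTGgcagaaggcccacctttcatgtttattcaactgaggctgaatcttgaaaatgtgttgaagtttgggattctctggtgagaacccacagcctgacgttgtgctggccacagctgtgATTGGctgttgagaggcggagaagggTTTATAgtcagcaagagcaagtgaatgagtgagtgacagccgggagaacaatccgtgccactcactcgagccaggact
Spp1: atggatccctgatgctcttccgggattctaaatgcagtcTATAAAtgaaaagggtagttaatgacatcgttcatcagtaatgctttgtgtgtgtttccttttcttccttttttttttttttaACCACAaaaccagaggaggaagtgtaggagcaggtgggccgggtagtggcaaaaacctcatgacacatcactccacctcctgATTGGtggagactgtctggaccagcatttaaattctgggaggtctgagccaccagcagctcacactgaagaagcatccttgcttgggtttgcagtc
Ibsp had 46.3% GC and 5 CpG in 300 bases, and Spp1 had 45.3% GC and 3 CpG, where Col1a2 had 61% and 13 and Alpl had 70% and 26. The CCAAT box on the opposite strand began 54 bases upstream of the start in Ibsp and 46 in Spp1.

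Other genes of the matrix pathway were counted by the same rule, without taking their promoter CpG into account. Genes that process and crosslink collagen had a window in 21 of 27 cases (77.8%). They included P4ha2, a prolyl hydroxylase subunit, with 4 windows and no site, the lysyl hydroxylase Plod1 with 3 windows and 4 sites (best score 6.13), the collagen galactosyltransferase Colgalt1 with 2 windows and the lysyl oxidase family member Loxl3 with 2. Genes of phosphate, pyrophosphate and mineral control had a window in 9 of 15 cases (60%), among them the phosphate transporter Slc20a2 and the vitamin D receptor Vdr with 2 each. The pyrophosphate exporter Ank and the pyrophosphate-generating enzyme Enpp1 had 1 each, and none of these 4 had a site. Chosen after their values were seen, the 2 genes of the list with a site were the secretory kinase Fam20c (1 site, score 6.73) and the phosphate transporter Slc20a1 (2 sites, best score 5.53).

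Counts were lower among structural and regulatory matrix proteins, a difference that was not tested. Proteoglycans and glycoproteins had one in 5 of 16 cases (31.2%): fibronectin (Fn1), Tgfbi, Thbs1, Thbs2 and Tnc. The other members of the Sparc family had one in 1 of 7 cases (14.3%), namely Fstl1 with 2 windows and 3 sites. Proteases and their inhibitors had one in 4 of 10 cases (40%), with 3 windows at the inhibitor Timp2, 2 at the membrane protease Mmp14, and 1 each at Timp1 and Timp3. Paralogues of Bglap and Alpl had one in 2 of 5 cases, Bglap2 and Bglap3, through the same window.

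Enamel matrix genes, which mark the dental epithelium that a molar digest could also hold, had a window in 1 of 7 cases (14.3%), the ameloblastin gene Ambn, 198 bases from the window midpoint. Amelx, Enam, Amtn, Odam, Odaph and Klk4 had none. Among the SIBLING genes the count was 0 of 5. All these counts stand beside the 59.5% of protein-coding genes with a window, and a gene without a window in this list may still have open chromatin.

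**Figure D5:**
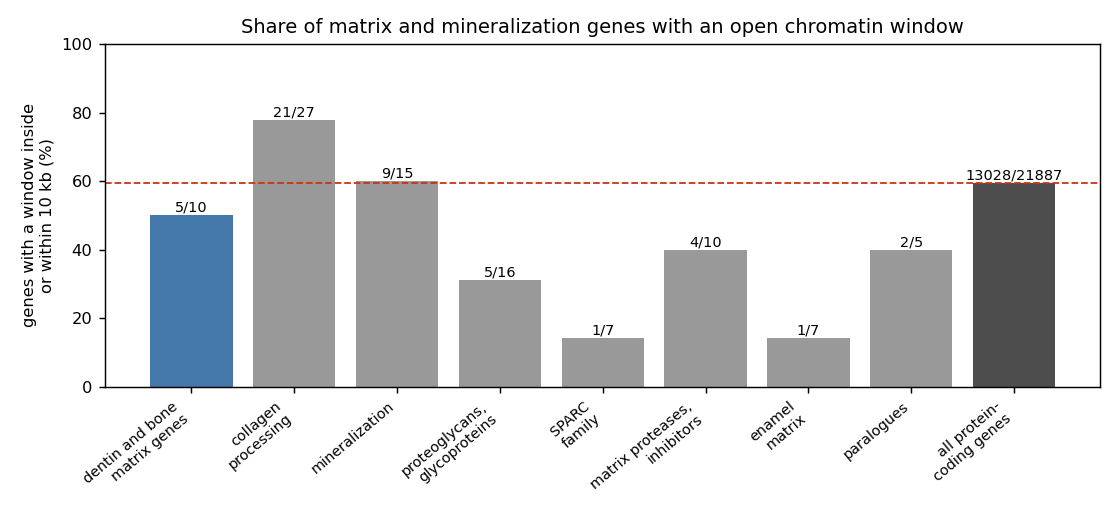
Share of genes (y axis, %) with a window inside or within 10 kb, for the 10 dentin and bone matrix genes (blue), 7 lists of related genes (grey) and all protein-coding genes (dark), with counts above the bars. The red dashed line is the share of all protein-coding genes; collagen processing genes are at 77.8%, the 10 matrix genes at 50%.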

How the data were processed

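ATAC-seq libraries from 1 mutant and 2 control samples were processed by the authors on mm10 with tools that include Bowtie2 2.3.5 and MACS2 2.1.1, per the submitters' processing notes. The windows are the central 201 bases of a union of 13500 peaks, in which HOMER (annotatePeaks) searched the Plagl1 motif, per the file headers. The filters behind the union are not given in the sources. The deposited GC value is a fraction of bases, printed as percent. The deposited CpG value is a ratio of CpG to steps between neighbouring bases, printed per 100 steps. The deposited motif score is a log-odds score.

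Window midpoints were set against RefSeq genes of GRCm38.p6, the assembly behind mm10, and sequences are RefSeq's. As a check, 1670 windows that lie wholly in a RefSeq promoter had the same GC and CpG values there (100%, within 0.0001). All sites of both files matched by position. The assignment script was tested on simulated data.

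The members and gene lists were chosen with earlier results of these data known. Named are all 10 members, genes sharing their windows, and up to 4 genes per list by number of windows; others named were chosen after their values were seen. Scpppq1 of the enamel list was not found in the gene table. No statistical test was run. Python 3.11.15, numpy 2.4.6, pandas 2.3.3, scipy 1.17.1 and matplotlib 3.10.9 were used.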

Additional observations from a re-analysis of the deposited data

How the results depend on the processing

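The reach of a gene set most counts. With the gene body alone, 2 of the 10 genes had a window (Sparc and Alpl), 2 windows were assigned, 1 gene had a motif site and the share over all protein-coding genes was 41.5%. At a limit of 1 kb or 3 kb, 4 windows were assigned to 4 genes, Bglap being lost, and that share was 53.5% and 55.1%. At 50 kb, 15 windows were assigned to 6 genes, Spp1 being added, and the share was 71.9%. By nearest gene alone that share was 49.7%, 4 of the 10 genes had a window (Bglap had 0), and Col1a2 had 2 windows in place of 1. Counting any base of a window in place of its midpoint changed none of the counts for the 10 genes. With sites of score 6.5 or more alone, 2 of the 6 sites and 1 gene (Col1a1) remained, where 15.9% of all sites reach that score. The share of genes with a window below the promoter CpG limit was 23.5% at a limit of 0.4, 43.7% at 0.75, and 18.1% for windows within 1 kb of a gene end. At or above the limit it was 83.6%, 91.9% and 78.5%. Dspp, Dmp1, Ibsp and Mepe had 0 windows in each of the settings run.

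The windows carry no depth or peak height. No paired analysis was possible because the files hold no value per library, and for the same reason no library was left out in turn.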

Other observations

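The osteocalcin copy Bglap3 also had a promoter entry, which differed from that of Bglap in its motifs. The Bglap3 promoter had 52.7% GC and a CpG ratio of 0.406, against 56.7% and 0.169 for Bglap. It held CCAAT at 2 places and no Plagl1 site sequence, TATAAA or ACCACA, where Bglap held 1 of each of these 4. Only these exact letters were searched. The Bglap3 promoter does hold the TATA-like run tatataag upstream of its start, which that search does not count. The nearest window midpoint was 3720 bases from the Bglap3 start and 8005 bases from the Bglap start.

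Windows at the start of genes with low promoter CpG were fewer than at other starts. Of genes with a ratio below 0.6, 16.4% had a window midpoint within 1 kb of the start, against 84.3% of genes at or above it. A motif site was present in 35.9% of the 1466 windows at low-CpG starts and in 32.1% of the 6526 at CpG-rich starts, a difference that was not tested. Among these, the Col1a2 window and the start window of Sparc held 1 site each and the Alpl window held 0.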
